A study of Mus musculus with 8 samples.

Results

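The enzymes that write, copy and remove DNA methylation were followed in mouse embryos at E8.5. They were *Dnmt1*, *Dnmt3a*, *Dnmt3b*, *Dnmt3l*, *Tet1*, *Tet2*, *Tet3* and *Uhrf1*, chosen by name as 8 genes of the 20667 with a symbol on the array. A probe was taken when the transcript name in the scanner file belonged to any of these genes. That gave 15 probes of 55681. All 15 were well above background on all 8 arrays, none was saturated, and all passed the filter on dim probes that left 33093 probes of 15381 genes for testing.

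The study asked whether reduced function of the Polycomb protein EED in a father alters gene expression in his offspring. Fathers were *Eed* wt/wt (4 embryos) or *Eed* hypo/wt (4 embryos), the latter carrying 1 copy of the hypomorphic allele Eedl7Rn5-1989SB, a chemically induced point mutation that lowers EED function without removing it. Mothers were wild type. The labels give the C57bl6/129 background to both parents, while the study elsewhere names the mothers of these embryos as c57bl/6J, and the sources do not settle this. Every embryo was itself wild type, collected 8.5 days after the plug and matched for stage. Each father group held 2 female and 2 male embryos by label. RNA of a whole embryo was hybridised to an Agilent one-colour array, so fewer cells of a type and less RNA per cell cannot be told apart.

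Cytosine methylation at CpG is laid down by the de novo methyltransferases DNMT3A and DNMT3B, with the catalytically inactive DNMT3L as their partner in germ cells, and is copied at replication by DNMT1, which UHRF1 recruits to hemimethylated DNA. TET1, TET2 and TET3 oxidise methylcytosine, which leads to its loss by dilution or repair. Methylation is erased in the preimplantation embryo, rebuilt around implantation, and is high in the somatic tissues of the early organogenesis embryo.

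Values are log2 signals with the 75th percentile of each array set to 0, so a difference of 1 is 2-fold. Because probes bind with different efficiency, no level of a probe was set against that of another. Embryos of *Eed* wt/wt fathers had 32158 to 39530 probes well above background and those of *Eed* hypo/wt fathers 29203 to 38878. The 4 arrays of each father group lay on a separate slide, and the effects of slide and of father cannot be told apart. Before scaling, the median log2 signal of negative controls was 2.08 to 2.31 with *Eed* wt/wt fathers and 2.50 to 3.17 with *Eed* hypo/wt fathers, without overlap. Median local background was 50 or 51 against 30, 32, 32 and 133 in heterozygous father replicates 1 to 4. The part of these differences in the values below was not tested. Heterozygous father replicate 3 stood apart, with an array median of -3.04 where the other 7 arrays lay between -4.36 and -3.63. It was the highest embryo for 34.5% of all tested probes, and for each probe that was highest in it the father difference is also given without it. By label, wild-type father replicates 2, 3 and 4 shared the start of their embryo code, whose meaning the sources do not give. The breeding plan of the study names fewer fathers than embryos for the wild-type and for the heterozygous group, so embryos of either may share a father. A supplementary legend for these arrays gives 4 for each genotype, which can be read as fathers or as embryos. The labels do not tie embryos to fathers, and p-values treat all 8 embryos as independent. All 10 markers of the embryo proper were well above background on all 8 arrays, and so were all 9 markers of yolk sac and visceral endoderm and all 6 of primitive erythroid cells. Wild-type father replicate 4 had the lowest mean deviation of the yolk sac markers (-0.33, the other 7 embryos -0.07 to 0.22). It was also lowest for the erythroid markers (-1.04, the other 7 embryos -0.03 to 0.42), and the part of this in the values below was not tested. Of 8 markers of trophoblast and decidua, 6 were tested and well above background on every array. Their mean deviation ran from 0.15 to 0.51 with *Eed* wt/wt fathers and from -0.95 to 0.21 with *Eed* hypo/wt fathers, and its part in the values below was not tested. The markers did not move together. *Eed* hypo/wt minus *Eed* wt/wt was -2.46 for *Prl8a2* and -0.91 for *Prl3d1*, but -0.05 for *Ascl2*, -0.06 for *Gcm1*, 0.05 for *Elf5* and 0.21 for *Hand1*.

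The starts of these genes differ in CpG content, the substrate of the enzymes they encode. The RefSeq table used here, on build GRCm38.p6, gives 15 starts for the 8 genes, and the 250 bases before each held between 2 and 51 CpG, against a median of 6 over all 32851 such windows. The count was above that median for 11 of the 15. The fullest was *Tet2*, at 51, and the *Dnmt3l* windows held 5, 4 and 3. Of the 15 windows, 3 lay outside the gene's own span. The first windows of *Uhrf1* (chr17:56303087-56303336, plus strand, 10 CpG) and *Dnmt3l* (chr10:78042037-78042286, plus strand, 5 CpG) are among these and are shown 5′ to 3′ with each CpG in capitals, since they belong to the gene with the lowest father difference of any of the 15 probes and to the member best known from germ cells.
Uhrf1, before the first start: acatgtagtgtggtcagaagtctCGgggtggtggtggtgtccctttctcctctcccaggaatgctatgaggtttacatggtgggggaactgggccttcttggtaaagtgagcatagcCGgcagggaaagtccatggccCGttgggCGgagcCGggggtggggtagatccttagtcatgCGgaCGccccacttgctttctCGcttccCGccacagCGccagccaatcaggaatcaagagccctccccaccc
Dnmt3l, before the first start: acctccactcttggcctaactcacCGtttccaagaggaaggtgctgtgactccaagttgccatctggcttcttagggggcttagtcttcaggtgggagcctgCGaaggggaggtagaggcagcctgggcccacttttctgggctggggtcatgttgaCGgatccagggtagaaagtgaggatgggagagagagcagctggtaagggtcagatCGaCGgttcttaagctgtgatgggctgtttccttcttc

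The windows were also searched on both strands for TTTCGCGC, TTTGGCGC, TTTCCCGC and TTTGCCGC, letters bound by E2F, the family of factors that drives S phase genes. A match stood in 1.86% of all windows and in 2 of these 15, both in genes of maintenance methylation. Every motif searched holds a CpG, and these windows of *Uhrf1* and *Dnmt1* held 30 and 26 CpG, more than 94.1% and 90.4% of all windows. The share among windows as rich in CpG was not counted. The match began 185 bases before the second *Uhrf1* start (chr17:56304117-56304146, plus strand) and 219 bases before the third *Dnmt1* start (chr9:20952824-20952853, minus strand), both within the span of the gene. The 30 bases around each are shown with the match in capitals.
Uhrf1, before the second start: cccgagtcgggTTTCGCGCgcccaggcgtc
Dnmt1, before the third start: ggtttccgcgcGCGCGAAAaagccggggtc

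No probe of these 8 genes passed the test between embryos of the 2 kinds of father. At an adjusted p under 0.01 and at least 2-fold, 0 of the 15 probes were called, and 0 of all 33093 tested (0%). At an unadjusted p under 0.05 the count was again 0 of 15, against 1440 of all tested probes, or 4.35%. By the brightest probe of each gene, *Tet2*, *Tet3* and *Uhrf1* were higher with *Eed* hypo/wt fathers and the other 5 genes lower, with differences of -0.12 to 0.12. The 95% intervals of these 8 genes together ran from 0.717-fold to 1.43-fold, and every one of the 15 probes had an adjusted p of 1.00 in limma. The groups overlapped for all 15 probes, where they did not for 3.15% of all tested probes.

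**Figure D1:**
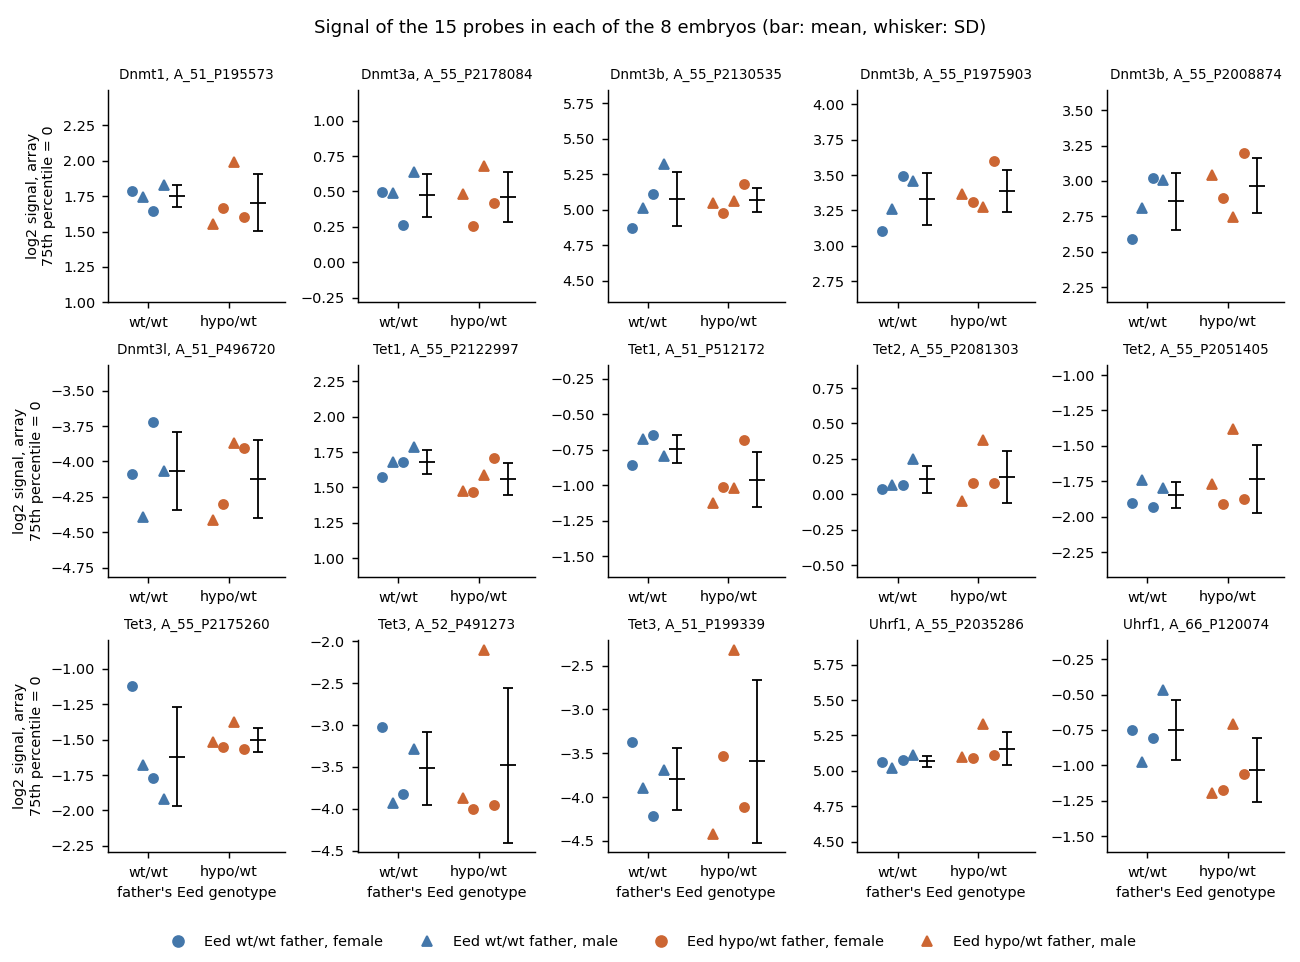
Log2 signal (vertical axis, array 75th percentile at 0) of each probe in every embryo, by father's genotype, with females as circles, males as triangles, and mean and SD (n = 4) beside each group. The father groups overlap in all 15 panels, and heterozygous father replicate 3 is far above the other embryos in the panels of A_52_P491273 and A_51_P199339.

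Maintenance methylation is described first. *Dnmt1* (chromosome 9, 20907206 to 20959888) had a single probe, A_51_P195573. It gave 1.78, 1.75, 1.65 and 1.83 in wild-type father replicates 1 to 4, and 1.55, 1.67, 1.99 and 1.60 in heterozygous father replicates 1 to 4. The groups overlapped, with heterozygous father replicate 3 the highest of all and replicate 1 of that group the lowest. The difference, *Eed* hypo/wt minus *Eed* wt/wt here and throughout, was -0.05 (standard error 0.11, 95% interval -0.30 to 0.21). Without heterozygous father replicate 3 it was -0.14, with an unadjusted p of 0.0980 in limma.

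*Uhrf1* (chromosome 17, 56303337 to 56323486) had 2 probes that name different transcripts. A_55_P2035286, for NM_010931, gave 5.07, 5.02, 5.08 and 5.11 with *Eed* wt/wt fathers and 5.10, 5.09, 5.33 and 5.11 with *Eed* hypo/wt fathers. All but heterozygous father replicate 3 lay within 5.02 and 5.11, and the difference was 0.09 (standard error 0.08), or 0.03 without that embryo. A_66_P120074, for NM_001111079, gave -0.75, -0.98, -0.81 and -0.47 against -1.20, -1.17, -0.70 and -1.06. Here 3 of the 4 embryos of *Eed* hypo/wt fathers lay below every embryo of the other group, and the remaining one was again replicate 3. The difference of -0.28 (standard error 0.15, 95% interval -0.63 to 0.07) was the lowest of the 15, with an unadjusted p of 0.0974 in limma. Without that embryo it was -0.39 (unadjusted p 0.0189 and adjusted p 0.518 in limma). Each embryo was left out in turn, and this leave-out was picked for mention after the values were seen. Its p-value is therefore no test.

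The differences of the *Uhrf1* probes had opposite signs, neither passed the test, and with arrays aligned on their medians both were below 0 (-0.01 and -0.39). Their difference within an embryo, the second probe minus the first, was -5.82 ± 0.18 (SD, n = 4) in the *Eed* wt/wt group and -6.19 ± 0.12 (SD, n = 4) in the *Eed* hypo/wt group. The change in this offset between groups was compared, not its size. The values of the groups, -6.00 to -5.58 and -6.29 to -6.03, did not overlap, and heterozygous father replicate 3 was the nearest of its group to the other. The change was -0.37 (two-sided exact permutation p 0.0286, which is as low as 4 against 4 can reach). This comparison was chosen after the values were seen. Over the 9 pairs of probes of a gene that were compared, the adjusted p was 0.257. The other 8 pairs changed by -0.10 to 0.17, with exact permutation p-values from 0.257 to 0.886. No count over all genes of the array was made of such pairs.

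**Figure D2:**
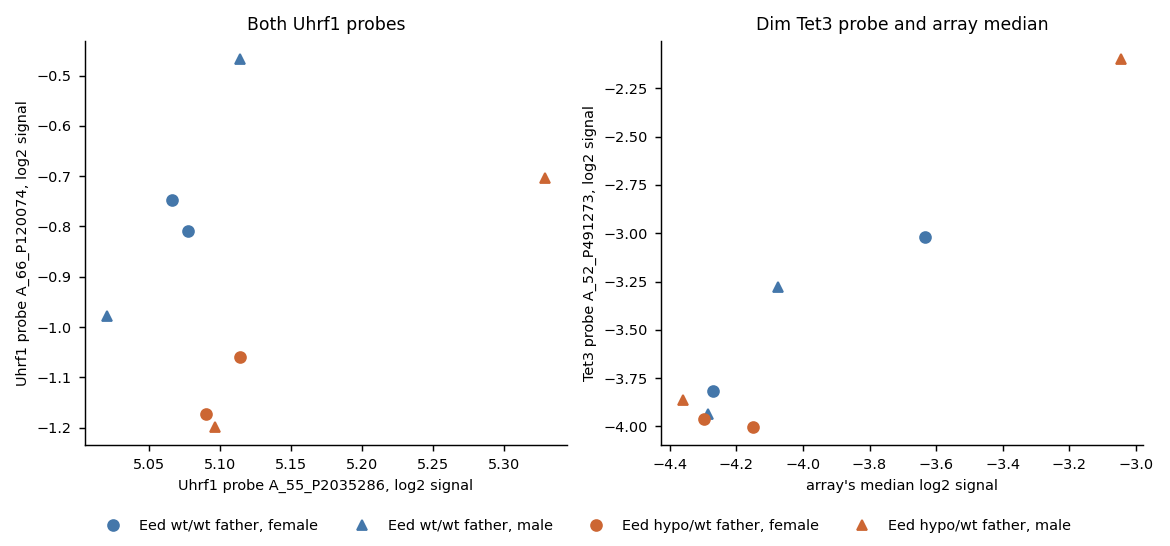
Left, log2 signal of both *Uhrf1* probes against each other in the 8 embryos. Right, log2 signal of *Tet3* probe A_52_P491273 against the median log2 signal of the array, with heterozygous father replicate 3 at the upper right (-2.10 and -3.04).

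The de novo methyltransferases follow. *Dnmt3a* (chromosome 12, 3801559 to 3914443), the de novo enzyme active in many somatic lineages, had a single probe, A_55_P2178084. It gave 0.50, 0.49, 0.27 and 0.64 with *Eed* wt/wt fathers and 0.48, 0.25, 0.68 and 0.42 with *Eed* hypo/wt fathers. Both groups spanned nearly the same range, and the difference was -0.01 (standard error 0.12, 95% interval -0.29 to 0.26), or -0.09 without heterozygous father replicate 3. Within each group a male embryo was the highest and a female one the lowest.

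*Dnmt3b* (chromosome 2, 153649411 to 153687730), the de novo enzyme of the epiblast and the early embryo, had 3 probes. A_55_P2130535 gave 4.87, 5.01, 5.11 and 5.32 with *Eed* wt/wt fathers and 5.05, 4.98, 5.06 and 5.18 with *Eed* hypo/wt fathers. A_55_P1975903 gave 3.10, 3.26, 3.49 and 3.46 against 3.37, 3.31, 3.27 and 3.60. A_55_P2008874 gave 2.59, 2.81, 3.02 and 3.01 against 3.04, 2.88, 2.75 and 3.20. All 3 probes were lowest in wild-type father replicate 1, and across the 8 embryos they rose and fell together, with Pearson r of 0.72 to 0.95 between them. The differences were -0.01, 0.06 and 0.11 (standard errors 0.11, 0.12 and 0.14). Over the 8 embryos, r with the array median was -0.24, -0.52 and -0.67 for these probes, and Spearman's rho -0.14, -0.48 and -0.79. For the *Tet1* probes r was -0.11 and -0.34 and rho -0.02 and -0.17, a weak relation at most.

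*Dnmt3l* (chromosome 10, 78042287 to 78063622), the cofactor without catalytic activity, was measured by A_51_P496720. It gave -4.09, -4.39, -3.72 and -4.07 with *Eed* wt/wt fathers and -4.42, -4.30, -3.87 and -3.90 with *Eed* hypo/wt fathers. Each group held higher and lower embryos across the same range, and the difference was -0.05 (standard error 0.18, 95% interval -0.48 to 0.37). Heterozygous father replicates 3 and 4 and wild-type father replicate 3 were the 3 highest of the 8.

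Among the erasers, *Tet1* (chromosome 10, 62804570 to 62887469), an eraser highly expressed in pluripotent and germ cells, had 2 probes that were both lower with *Eed* hypo/wt fathers. A_55_P2122997 gave 1.58, 1.68, 1.68 and 1.78 against 1.47, 1.47, 1.59 and 1.71. A_51_P512172 gave -0.86, -0.68, -0.65 and -0.79 against -1.13, -1.02, -1.02 and -0.68. In both, heterozygous father replicate 4 lay within the range of the other group, and for A_51_P512172 the other 3 embryos of *Eed* hypo/wt fathers lay below it. The differences were -0.12 (standard error 0.08, 95% interval -0.31 to 0.07) and -0.22 (standard error 0.11, 95% interval -0.48 to 0.04), with unadjusted p-values of 0.185 and 0.0896 in limma. The second was the smallest of the 15 and became 0.00918 without heterozygous father replicate 4, where the difference was -0.31 and the adjusted p 0.721. This leave-out, too, was picked after the values were seen, and removing the embryo that overlapped the other group lowers p by construction.

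*Tet2* (chromosome 3, 133463677 to 133545136), best known in blood stem cells, had 2 probes. A_55_P2081303 gave 0.04, 0.07, 0.07 and 0.25 with *Eed* wt/wt fathers and -0.04, 0.08, 0.39 and 0.08 with *Eed* hypo/wt fathers. A_55_P2051405 gave -1.90, -1.74, -1.93 and -1.80 against -1.77, -1.91, -1.38 and -1.87. Heterozygous father replicate 3 was the highest embryo in both, and the others overlapped. The differences were 0.02 (standard error 0.11) and 0.11 (standard error 0.13). Both fell below 0 without that embryo, to -0.07 and -0.01.

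*Tet3* (chromosome 6, 83362373 to 83457208), the enzyme that oxidises the paternal genome in the zygote, had 3 probes that differed in behaviour. A_55_P2175260 gave -1.12, -1.68, -1.77 and -1.92 with *Eed* wt/wt fathers and -1.52, -1.55, -1.38 and -1.57 with *Eed* hypo/wt fathers. All 4 embryos of *Eed* hypo/wt fathers lay between wild-type father replicate 1, the highest, and the other 3 of its group. The difference was 0.12 (standard error 0.17), and without wild-type father replicate 1 it was 0.29 (unadjusted p 0.0185 and adjusted p 1.00 in limma). That embryo was picked for leaving out after the values were seen, so the p-value without it is no test.

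The other *Tet3* probes were the most variable of the 15. A_52_P491273 gave -3.02, -3.93, -3.82 and -3.28 with *Eed* wt/wt fathers and -3.87, -4.00, -2.10 and -3.96 with *Eed* hypo/wt fathers. A_51_P199339 gave -3.38, -3.90, -4.22 and -3.69 against -4.42, -3.53, -2.32 and -4.11. Heterozygous father replicate 3 lay 1.77 and 1.58 above the median of the other 7 embryos. These probes tracked the median of the array, with r of 0.96 and 0.95 and rho of 0.69 and 0.90 over 8 embryos. The part of that shift in their values was not tested. Their differences were 0.03 and 0.20 with wide intervals (-1.04 to 1.11 and -0.84 to 1.25), and without that embryo they were -0.43 and -0.22. These were the probes, out of 15, whose interval did not lie within 2-fold either way. The other 13 did, against 80.1% of all tested probes, which include probes not well above background on every array.

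**Figure D3:**
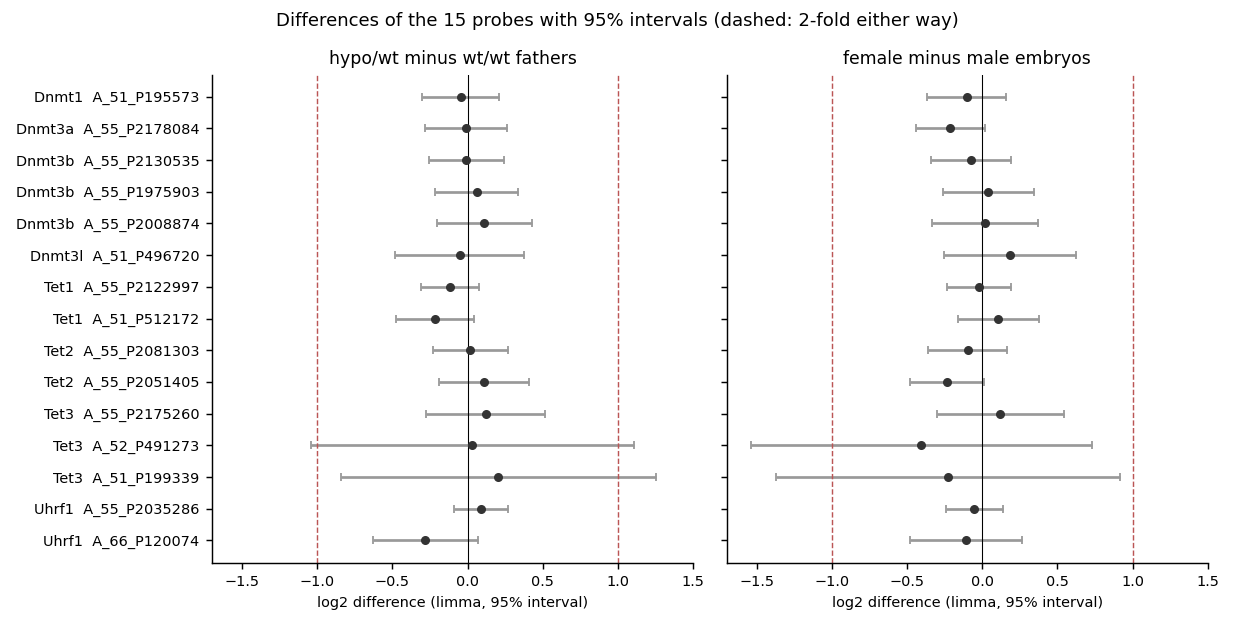
Log2 difference (horizontal axis) of each probe with its 95% interval from limma, between father groups (left) and between sexes (right), with dashed lines at 2-fold either way. Every interval crosses 0, and only those of *Tet3* A_52_P491273 and A_51_P199339 pass a dashed line.

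Between female and male embryos no probe of these genes passed the test either. With the father group in the fit, 0 of the 15 probes were called, against 11 of all tested probes (0.0332%), and 4 of the 5 sex-linked genes used to check the labels were among the genes called. At an unadjusted p under 0.05 there were 0 of 15, against 3.27% of all. Female minus male differences ran from -0.41 to 0.18, with 10 probes lower in females. The lowest, for *Tet3* A_52_P491273, was 0.07 without heterozygous father replicate 3, and 13 of the 15 intervals lay within 2-fold either way, against 79.7% of all tested probes. The smallest p-values belonged to *Tet2* A_55_P2051405 and to *Dnmt3a*. *Tet2* A_55_P2051405 had a female mean of -1.90 ± 0.03 (SD, n = 4) and a male mean of -1.67 ± 0.20 (SD, n = 4), a difference of -0.23 (standard error 0.10, unadjusted p 0.0587 in limma). The highest male was heterozygous father replicate 3, and without it the difference was -0.14 (unadjusted p 0.0811 in limma). This was the single probe of the 15 whose sexes did not overlap, as for 2.58% of all tested probes. *Dnmt3a* had a female mean of 0.36 ± 0.12 (SD, n = 4) and a male mean of 0.57 ± 0.10 (SD, n = 4), a difference of -0.21 (standard error 0.09, unadjusted p 0.0625 in limma), or -0.17 without that embryo, and the sexes overlapped. All adjusted p-values of the members were 1.00.

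Whether the father's genotype acted differently in the sexes was tested by an interaction, with 2 embryos in each cell. Odd replicate numbers were female with *Eed* wt/wt fathers and male with *Eed* hypo/wt fathers, and even ones the reverse. The term is therefore also a contrast of even against odd replicate numbers. The highest array medians, of heterozygous father replicate 3 (-3.04) and wild-type father replicate 1 (-3.63), were both on the odd side. Their part in the term was not tested. None of the 15 probes was called (0% of all tested probes were), none had an unadjusted p under 0.05 (2.22% of all), and the smallest was 0.214, for *Tet3* A_55_P2175260. The precision was low, since 10 of the 15 intervals lay within 2-fold either way (52.1% of all tested probes).

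Across the 8 embryos, most of these probes varied less than the median probe. The range from lowest to highest embryo was 0.31 to 2.10 with a median of 0.50, and 10 of the 15 probes had a smaller range than the median of all tested probes, 0.64. All 15 were well above background on all 8 arrays, which the filter asked on only 4. Ranges of probes of like brightness were not compared. Heterozygous father replicate 3 was the highest embryo for 7 of the 15 probes, and heterozygous father replicate 1 the lowest for 6, as it was for 23.6% of all tested probes. *Dnmt1*, *Dnmt3a*, both *Tet2* probes, the more variable *Tet3* pair and *Uhrf1* A_55_P2035286 were the 7. With the array median, *Dnmt1* had r of 0.87 and rho of 0.90, and *Dnmt3a* 0.60 and 0.57. *Tet2* had 0.74 and 0.57 by its brightest probe and 0.72 and 0.05 by the second, and *Uhrf1* A_55_P2035286 had 0.80 and 0.24. The part of the array shift in these values was not tested.

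**Figure D4:**
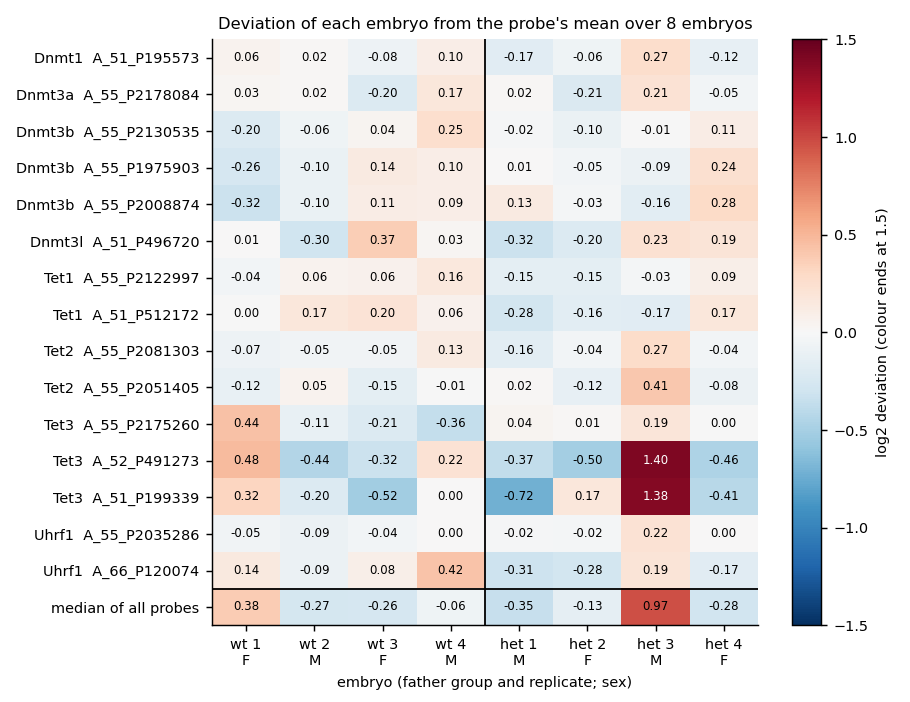
Log2 deviation (colour and number) of each embryo (columns, by father group and replicate) from the mean of each probe over 8 embryos, with the median of all probes of the array in the bottom row. Heterozygous father replicate 3 has the highest array median and the highest value for 7 of the 15 probes, while the 3 *Dnmt3b* probes are lowest in wild-type father replicate 1.

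The order of the embryos was compared between genes by Pearson's r of the brightest probes over the 8 embryos, as a description, since all share arrays and the shift of the array. Among the members, *Dnmt1* and *Tet2* had r of 0.88, *Tet2* and *Uhrf1* 0.82, and *Dnmt1* and *Dnmt3a* 0.71. Spearman's rho was lower for the first of these pairs, at 0.60. *Dnmt3b* went with *Tet1* (r 0.70, rho 0.83) and against *Tet3* (r -0.79, rho -0.67).

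Over 15375 other genes, the pattern of *Dnmt3b* was most like that of *Axin2*, a negative feedback gene of Wnt signalling, and *Dll3*, a Notch ligand of the presomitic mesoderm, both with r of 0.95 and with rho of 0.98 and 0.90. *Dnmt1* was most like *Xkr4* and *Gnb2* (r 0.98 for both), *Dnmt3a* like *Rnd3* and *Atad3aos* (0.98 for both), and *Uhrf1* like *Tmem89* and the splicing regulator *Ptbp1* (0.99 and 0.98). *Tet1* was most like *Dst* and *Pisd-ps2* (0.96 for both), *Tet3* like *Dedd2* and *4933409K07Rik* (0.96 for both), and *Dnmt3l* like *Dguok* and *Luc7l* (both 0.93). For *Tet2* the nearest were *Tmem8b* and *Caly* (0.98 and 0.97), but rho with *Tmem8b* was 0.55. How often values of this size arise by chance among so many genes was not tested.

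Genes that work with these enzymes were described next, by the brightest probe of each. Of 100 such genes in 8 lists, 90 were tested, and 0 were called between father groups. At an unadjusted p under 0.05 there were 4, or 4.44%, all higher with *Eed* hypo/wt fathers, against 4.35% of all probes in either direction and 2% higher. Each had an adjusted p of 1.00 in limma. By sex, 0 of the 90 had an unadjusted p under 0.05.

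Partners of maintenance methylation and of access to chromatin had 14 tested genes with a median difference of 0.03, 9 higher and 5 lower, and 1 of them with an unadjusted p under 0.05. That gene was *Zfp57*, the zinc finger protein that keeps methylation at imprinted loci through the preimplantation wave. It lay between -1.08 and -0.98 in the 4 embryos of the *Eed* wt/wt group and between -0.82 and -0.47 in those of the *Eed* hypo/wt group, which did not overlap. The difference was 0.34 (standard error 0.09, unadjusted p 0.00629 in limma), while a second *Zfp57* probe had -0.06. *Dppa3*, which shields the maternal genome from oxidation, was well above background on 6 arrays, and its difference was -0.38 (standard error 0.96). *Hdac1*, named after its values were seen, had -0.12 by its brightest probe, but -0.97 and -0.48 by its other tested probes. The second probes of *Uhrf2*, *Usp7* and *Pclaf* had -0.07, 0.11 and 0.07.

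TET partners and the enzymes that supply their cofactor had 7 tested genes and a median of 0.03. *Idh2*, a mitochondrial source of alpha-ketoglutarate, measured 5.70 ± 0.06 (SD, n = 4) and 5.89 ± 0.10 (SD, n = 4), a difference of 0.19 (standard error 0.08, unadjusted p 0.0399 in limma). *Ogt*, the glycosyltransferase that binds TET proteins, had -0.25 (standard error 0.13) and a second probe -0.16. The 15 tested genes of excision and repair, which take out oxidised or deaminated cytosine, had a median of -0.06, 6 higher and 9 lower, and 0 at an unadjusted p under 0.05. Those furthest from 0 were *Apobec1* (-0.30, standard error 0.65, above background on 5 arrays) and *Parp1* (0.23, standard error 0.19).

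The list of readers of methylated DNA and their MBD family relatives had 9 tested genes and a median of -0.03. *Mbd3*, an MBD family subunit of the NuRD complex, gave 5.65, 5.59, 5.64 and 5.74 with *Eed* wt/wt fathers and 5.81, 5.81, 5.90 and 5.75 with *Eed* hypo/wt fathers. The groups did not overlap and the difference was 0.16 (standard error 0.07, unadjusted p 0.0424 in limma), while a second *Mbd3* probe had -0.12. *Zbtb38* had -0.21 (standard error 0.30). Groups were apart for 3 of the 90 genes, or 3.33%, against 3.15% of all probes, and besides *Zfp57* and *Mbd3* that was *Trim28* (0.10, standard error 0.06), the corepressor that ZFP57 recruits, named after its value was seen.

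The 4 tested CXXC proteins, which bind CpG without methylation, lay between -0.12 (*Kdm2a*) and 0.16 (*Cxxc1*). The 14 tested genes of methyl donor supply had a median of -0.01, from -0.51 for *Bhmt* (standard error 0.43, above background on 6 arrays) to 0.24 for *Mthfd1* (standard error 0.19). The 17 tested genes of S phase and division, with which *Dnmt1* and *Uhrf1* are known to be expressed, had a median of 0.04 and a range of -0.12 to 0.15, with *Mcm3* at 0.15 and *Cdc6* at 0.13. None of these 3 lists held a gene with an unadjusted p under 0.05.

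Germline genes that promoter methylation is known to keep silent in somatic cells were the last list. Of 16, 10 passed the filter on dim probes and 6 were well above background on all 8 arrays. The 10 had a median difference of -0.01, 4 higher and 6 lower. *Brdt*, a testis bromodomain protein, gave -2.34, -2.94, -2.90 and -3.03 with *Eed* wt/wt fathers and -1.84, -1.77, -2.57 and -2.31 with *Eed* hypo/wt fathers, which overlapped. The difference was 0.68 (standard error 0.23, unadjusted p 0.0182 in limma). *Tex101* had 0.49 (standard error 1.29) and was above background on 5 arrays. The mean deviation of the 10 genes was highest in heterozygous father replicate 3 (0.56) and wild-type father replicate 1 (0.37), the embryos with the highest array medians (-3.04 and -3.63), and the part of that shift was not tested.

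**Figure D5:**
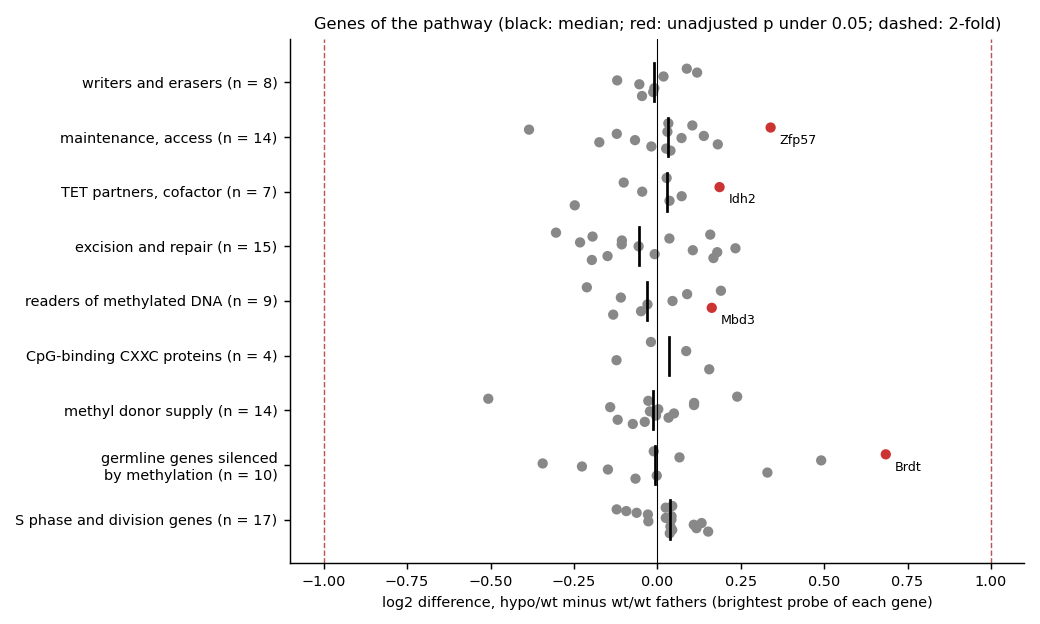
Log2 difference between father groups (horizontal axis) of the brightest probe of each tested gene, by list (rows), with the median of each list as a black bar and an unadjusted p under 0.05 in red. All genes lie within the dashed lines at 2-fold, and *Zfp57*, *Idh2*, *Mbd3* and *Brdt* are red.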

How the data were processed

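Each of 8 E8.5 embryos had its own array. The authors labelled RNA with a single dye, scanned the slides and extracted spots with Agilent Feature Extraction (version 11.0.1.1). In the deposited files the intensity of a spot has its background and spatial trend removed, and arrays are not yet scaled to each other. A deposited table of the whole series holds the same intensity values rounded, and no column of it went unused.

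Control and outlier spots were left out, spots of a probe were averaged, and the 75th percentile of each array was set to 0 on the log2 scale. Testing was limited to probes outside the lowest 20% by mean and well above background on at least 4 of 8 arrays. The number of arrays limits precision. Groups were compared with limma (version 3.58.1, R 4.3.3, with data.table, version 1.17.8) over all 33093 probes, with Benjamini-Hochberg adjustment, and called at an adjusted p under 0.01 and at least 2-fold, as the methods give. Sexes were compared with father group in the fit, and father by sex as an interaction. Pairs of probes were compared by a two-sided exact permutation test. Other steps used Python 3.11.15, numpy 2.4.6, pandas 2.3.3, scipy 1.17.1 and matplotlib 3.10.9. Of 28685 probes with a RefSeq accession, 27235 matched a symbol (assembly GRCm38.p6, which also gives the gene positions and sequences). The test was tried on simulated data for the father groups: of 200 probes among 33068 changed 4-fold, a median of 64.5% was called over 5 runs, with at most 5 false calls.

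The members and lists were chosen with earlier results of these data known. All members were named with every probe. From each list the genes at an unadjusted p under 0.05 in either comparison were named, filled up to 2 by the largest father difference, and for each member the 2 genes most like it. Alternatives included a normexp background correction (offset 50) of the median signal of each spot, other scalings and filters, sex, replicate number or embryo code in the fit, array weights, other moderation, means over probes, and each embryo left out. Leaving out wild-type father replicate 1 and heterozygous father replicate 3 together was chosen after seeing the data.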

Additional observations from a re-analysis of the deposited data

Results flagged for a closer look

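Within a father group, 34 sets of 4 values were checked for an embryo far from the other 3, by how much of the range of the group lay in the gap beside that embryo. Chance gives about 1 in 20, or 1.7 sets, and 4 passed Dixon's 95% limit. Shares of the range are given in parentheses. Heterozygous father replicate 3 stood out for 3 of them, *Tet3* A_52_P491273 (0.928), *Uhrf1* A_55_P2035286 (0.898) and the median signal of its array (0.839). Wild-type father replicate 4 stood out for *Tet2* A_55_P2081303 (0.871), where it gave 0.25 and the other 3 of its group 0.04 to 0.07.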

How the results depend on the processing

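In none of the settings run was any of the 15 probes called between father groups, between sexes or in the interaction. The smallest adjusted p of any of them was 0.523 between father groups under another processing (limma with array weights, *Tet1* A_51_P512172), 0.811 between sexes, and 0.518 and 0.840 with embryos left out. The smallest unadjusted p between father groups under another processing was 0.0206 (limma with normexp, *Uhrf1* A_55_P2035286, difference 0.22). Most differences were small against their errors, so their signs moved easily, and the cause was not tested beyond the shift named next. Aligning arrays on their medians moved the median difference of all tested probes to -0.10 between father groups, 0.13 between sexes and 0.69 in the interaction, and differences under that setting are relative to those shifts. The number of arrays limits what could be seen, and all 15 probes were well above background on all 8.

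A gene named without a probe stands for its brightest one. Signs between father groups changed as follows. With normexp they were 0.016 for *Dnmt3a*, -0.028 for *Dnmt3b* A_55_P1975903 and 0.070 for *Dnmt3l*. With arrays aligned on medians they were -0.044 for *Dnmt3b* A_55_P1975903, -0.084 for *Tet2*, -0.071 for *Tet3* A_52_P491273 and -0.014 for *Uhrf1*. With array weights they were -0.029 for *Tet2*, -0.013 for its second probe and -0.14 for *Tet3* A_52_P491273. With a random block for the embryo code (correlation 0.539) they were 0.035 for *Dnmt3b* and -0.073 for *Tet3* A_52_P491273. Averaging the probes of a gene gave 0.054 for *Dnmt3b* and -0.097 for *Uhrf1*. Without wild-type father replicate 1 and heterozygous father replicate 3 together they were -0.090 for *Tet2*, -0.027 for its second probe, -0.26 for *Tet3* A_52_P491273 and -0.082 for A_51_P199339. With each embryo left out, *Dnmt1* ran from -0.14 to 0.0044, *Dnmt3a* from -0.086 to 0.056, *Dnmt3b* from -0.079 to 0.072 and its probe A_55_P1975903 from -0.016 to 0.11. *Dnmt3l* ran from -0.16 to 0.062, *Tet2* from -0.069 to 0.075, its second probe from -0.0073 to 0.17, *Tet3* A_51_P199339 from -0.22 to 0.48 and A_52_P491273 from -0.43 to 0.21.

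Between the sexes (female minus male), normexp gave -0.0061 for *Dnmt3b* A_55_P2008874. Aligning on medians gave 0.042 for *Dnmt1*, 0.070 for *Dnmt3b*, 0.12 for *Tet1*, 0.049 for *Tet2*, 0.093 for *Uhrf1* and 0.037 for its second probe. Array weights gave 0.016 for *Tet3* A_51_P199339, and averaging the probes of a gene gave 0.041 for *Tet1* and -0.17 for *Tet3*. Without both of the embryos named above the values were 0.033 for *Tet1*, 0.016 for *Tet2*, -0.0063 for *Tet3*, 0.089 for its probe A_51_P199339 and 0.0076 for *Uhrf1*. With each embryo left out, *Dnmt3b* ran from -0.14 to 0.0058, its other probes from -0.039 to 0.14 and from -0.068 to 0.13, and *Tet1* from -0.086 to 0.014. *Tet3* ran from -0.055 to 0.20, its other probes from -0.60 to 0.24 and from -0.68 to 0.066, and *Uhrf1* from -0.088 to 0.0047. All other values kept their sign and stayed short of the threshold. The change in offset between the *Uhrf1* probes, -0.37, ran from -0.46 to -0.36 over 12 other processings and from -0.43 to -0.29 with embryos left out.

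Over all probes, the count of 0 called between father groups was 1 without wild-type father replicate 1, without heterozygous father replicate 4, and without the pair named above, and ran from 0 to 1 with each embryo left out. The 11 called between the sexes became 5 with no filter on dim probes, 6 with the lowest 20% removed only, 0 when a probe had to be well above background on all 8 arrays (which removes genes silent in 1 sex), 5 with probes of a gene averaged, 7 without the pair, and 4 to 9 with each embryo left out. The interaction had 4 called probes with arrays aligned on medians and 0 otherwise. The 1440 probes at an unadjusted p under 0.05 between father groups became 478 with arrays aligned on medians, 5333 with no filter, 3043 with array weights, 685 with the embryo code, 724 genes with probes averaged, 3099 without heterozygous father replicate 3 and 2340 without the pair. The 1081 between the sexes became 255, 838, 1727, 1986, 498, 1661 and 1365 in the same settings. The 736 in the interaction ran from 382 to 4889, the highest without heterozygous father replicate 1.

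The deviations of same-numbered embryos correlated at -0.55, -0.05, -0.59 and -0.15, so no positive relation by replicate number was seen. Same-numbered embryos always differed in sex, and replicates 1 and 3 held the arrays with the highest medians. These values therefore cannot show whether the numbers pair the embryos. With the replicate number as a block, 0 probes were called between father groups, with 874 at an unadjusted p under 0.05 in place of 1440, and 0 between the sexes in place of 11. In the interaction this block could not be fitted, because the term is itself a contrast of even against odd replicate numbers.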
